A study of Mus musculus with 19 samples.

Results

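The LY6 surface antigen genes LY6A, LY6C1, LY6C2, LY6E and LY6D were examined in sorted regulatory T cells (Tregs) of mouse lymph nodes. They were taken by symbol and make up 5 of the 24982 genes in the table of counts. These 5 were chosen by their family and with their measured levels across the 4 groups already known. Their levels and fold changes are therefore given as a description. Calls of the members are printed as part of that description, and nothing is read from them. All 5 had enough counts to enter the fit across genes.

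The animals were Foxp3DTR mice, in which FoxP3-expressing cells carry the diphtheria toxin receptor and a green fluorescent protein (GFP), so that every group shared this allele, and they were 8 to 16 weeks old. Injured mice had received a burn over 20% of the body surface and were studied on day 7, and uninjured mice had received a sham procedure. CD4+FoxP3-GFP+ cells of the axillary, brachial and inguinal nodes were sorted by flow cytometry into CD44high and CD44low cells, and RNA of 50000 cells was sequenced per sample. There were 4 libraries of CD44high and 5 of CD44low Tregs from uninjured mice, and 4 and 6 from injured mice. Neither toxin nor any other agent is named in the labels of these libraries. The labels do not say whether a library came from 1 mouse or from several, so that p-values measure the spread between these libraries, which may be technical. Of the injured CD44low libraries, 3 carry a second number in their label, whose meaning is not given. They are called the second-number libraries here. Labels 1_2 and 5_2 share their first number with libraries 1 and 5 of the same group. Whether they repeat the same material is not stated, so the 6 libraries may not be independent.

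Proteins of the LY6 family are small, fold into a compact domain held together by disulfide bonds, and are mostly tied to the outer cell surface by a glycosylphosphatidylinositol (GPI) anchor. Many of their genes lie side by side in a cluster, and several are long used as antibody targets to tell blood cells apart. LY6A is the antigen Sca-1 of blood stem cells and activated T cells, LY6C1 and LY6C2 together make up the antigen Ly-6C of monocytes and of some T cells, LY6E is widely expressed and inducible by interferon, and LY6D marks early cells of the B lineage.

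In the GRCm38 build with the GENCODE vM21 annotation, the genes lie on chromosome 15 at chr15:74994877-74998031 (LY6A, minus strand), chr15:75044018-75048830 (LY6C1, minus strand), chr15:75108158-75111970 (LY6C2, minus strand), chr15:74955051-74959905 (LY6E, plus strand) and chr15:74762056-74763620 (LY6D, minus strand). The stretch from LY6D to LY6H covers 805 kb and 18 protein-coding genes, of which 8 had enough counts to be tested. The build behind the deposited counts was not tied to this one in the sources used here, so coordinates describe the annotation and not the count table.

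LY6C1 and LY6C2 lie 63.1 kb apart and their coding sequences are alike at 384 of 393 bases. The first 150 coding bases of each are shown because 6 of the 9 differences fall there, and capitals mark those bases.
LY6C1: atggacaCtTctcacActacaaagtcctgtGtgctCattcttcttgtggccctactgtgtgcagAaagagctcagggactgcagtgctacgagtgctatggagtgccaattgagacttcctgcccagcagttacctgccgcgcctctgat
LY6C2: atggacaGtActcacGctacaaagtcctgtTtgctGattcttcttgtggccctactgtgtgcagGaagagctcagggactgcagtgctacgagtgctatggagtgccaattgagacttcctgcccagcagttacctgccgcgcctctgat
Beyond the differing bases the windows were identical, so a read that covers none of the differences cannot be told between the 2 genes. Of all stretches of 50 bases in the main LY6C1 transcript, 36.7% also occurred in transcripts of another gene, chiefly LY6C2, and for LY6C2 the share was 33%. At 100 bases the shares were 15.3% and 15.8%. For LY6A 10% of the stretches of 50 bases were shared and none of those of 100 bases, and for LY6E and LY6D none were shared at either length. The treatment of such reads in the counting is not stated in the sources at hand, so that LY6C1 and LY6C2 counts are uncertain to that extent.

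The promoters of LY6C1 and LY6C2 are shown because these near-identical neighbours had opposite directions between the CD44 subsets. The 250 bases before the RefSeq start of each gene are printed 5′ to 3′ on the minus strand (GRCm38.p6), and only these 2 of the 5 members had an entry in the table used. Capitals mark the motif matches found.
LY6C1, chr15:75048838-75049087: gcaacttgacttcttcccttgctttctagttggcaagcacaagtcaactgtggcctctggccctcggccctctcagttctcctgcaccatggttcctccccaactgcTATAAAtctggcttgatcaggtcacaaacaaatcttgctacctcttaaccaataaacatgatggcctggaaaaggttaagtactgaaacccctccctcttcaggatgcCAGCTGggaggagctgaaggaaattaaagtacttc
LY6C2, chr15:75111972-75112221: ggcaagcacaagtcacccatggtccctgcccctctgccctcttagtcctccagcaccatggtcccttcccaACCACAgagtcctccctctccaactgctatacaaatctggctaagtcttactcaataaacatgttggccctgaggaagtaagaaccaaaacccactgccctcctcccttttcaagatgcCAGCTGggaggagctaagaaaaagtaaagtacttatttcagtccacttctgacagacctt
The windows could be aligned over 216 bases, with 164 identical, and were offset because each is counted from its own annotated start. Both strands were searched for TATAAA, TTCNNNGAA (STAT), the interferon response element (ISRE), TGANTCA (AP-1), GTAAACA (FOXO), TGTGGT (RUNX), CAGCTG (E-box) and CTTTGA (TCF/LEF). Both promoters held CAGCTG, from base -35 to -30 in LY6C1 and from -60 to -55 in LY6C2. LY6C1 alone held TATAAA, from -143 to -138, and LY6C2 alone held TGTGGT, on the opposite strand from -179 to -174. Among the 32851 promoters of the table, over windows of the same length, 13.0% held CAGCTG, 12.4% TATAAA and 14.0% TGTGGT. These matches are a description of letters and not of binding.

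Levels are given as CPM, the count of a gene after all libraries are put on a common total, with the library total scaled by edgeR's TMM factor, which evens out differences in composition. Library totals lay between 5582234 and 9433610 counts, with the injured CD44high libraries among the deeper ones at 7616633 to 9433610. The sort was visible in the RNA: CD44 was higher in CD44high Tregs by 2.16 on the log2 scale in uninjured and by 1.90 in injured mice (edgeR, adjusted p = 6.19e-13 and 3.43e-12). FOXP3, the factor that defines Tregs, did not pass the test in any of the 5 comparisons (edgeR, smallest adjusted p = 0.0681; 1 comparison had an unadjusted p under 0.05). Other Treg markers did differ. In uninjured mice CTLA4 (log2 2.32), TNFRSF18 (0.95) and IKZF2 (0.92) were called higher in CD44high Tregs and IL2RA (-0.62) lower, while CD4 and CD3E were not called. After injury CTLA4 (0.73) and TNFRSF18 (0.42) were called higher in CD44low Tregs. In bulk RNA of sorted cells, fewer cells that express a gene and less RNA per cell cannot be told apart. How large a share of all genes has groups that do not overlap was not computed. Overlap and its absence are therefore stated below as a description of the libraries only.

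Per length of the main transcript, LY6E was the most abundant member in every group, at 1643, 1274, 1603 and 1636 CPM per kb in uninjured CD44high, uninjured CD44low, injured CD44high and injured CD44low Tregs. LY6A followed, at 574, 279, 552.5 and 372 CPM per kb in the same order. LY6C1 took 12.3 and 16.2 CPM per kb in the CD44high groups and 279 and 259.8 in the CD44low groups, so that in uninjured CD44low Tregs its level per length was close to that of LY6A. LY6D at 19.4 to 35.4 and LY6C2 at 7.88 to 17.2 CPM per kb were low throughout. All 5 together made up 0.332% to 0.479% of a library's counts.

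**Figure D1:**
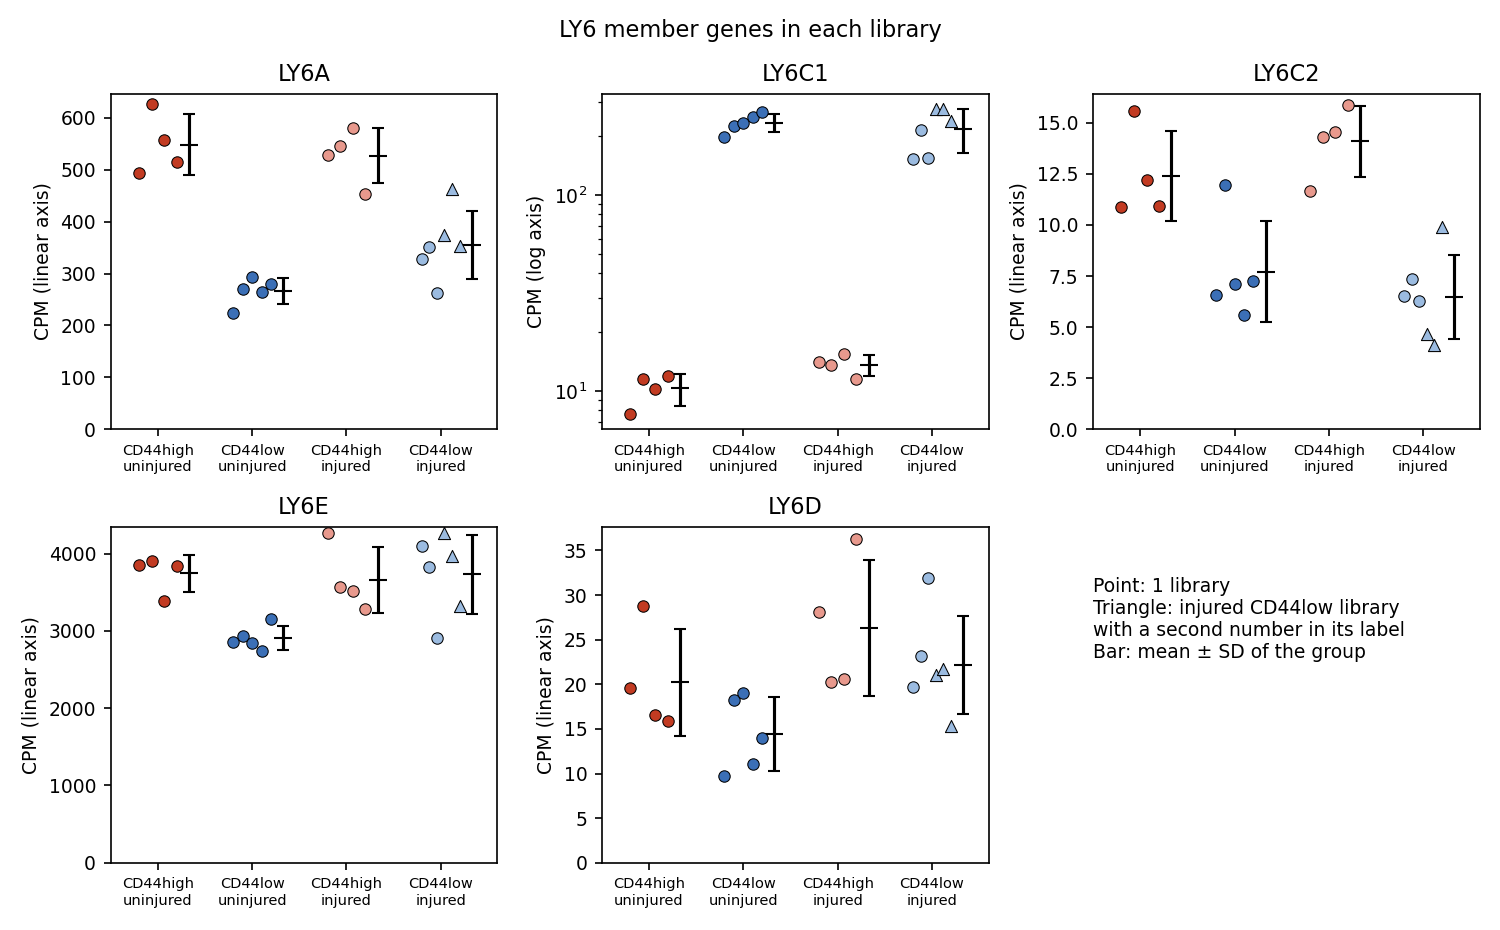
Each panel plots the CPM of 1 member gene in the 19 libraries by group, with triangles for the second-number libraries and bars for the group mean ± SD; the LY6C1 axis is logarithmic and the others are linear from 0. LY6C1 lies at 7.67 to 15.5 CPM in all CD44high libraries and at 153 to 277 CPM in all CD44low libraries.

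Of the members, LY6C1 differed most between the CD44 subsets, and its level was higher in CD44low Tregs before and after injury. Its level was 7.67, 11.5, 10.3 and 11.9 CPM in the 4 uninjured CD44high libraries. The 5 uninjured CD44low libraries held 198, 227, 235, 250.2 and 265.5 CPM. The groups were far apart, at 10.4 ± 1.92 (SD, n = 4) against 235 ± 25.3 CPM (SD, n = 5), a ratio of 22.7. In injured mice the CD44high libraries held 14.1, 13.7, 15.5 and 11.5 CPM. The 6 injured CD44low libraries ran from 153 over a median of 228 to 277 CPM, again without overlap and with a ratio of means of 16. The fitted log2 fold change of CD44high against CD44low Tregs was -4.49 (SE 0.200) in uninjured and -4.0 (SE 0.189) in injured mice.

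Blood and lymph vessel lining also carries Ly-6C, and the endothelial marker list moved with LY6C1. Its 6 genes summed to 56.1 to 73.8 CPM in uninjured CD44high, 186 to 219 in uninjured CD44low, 79.1 to 112 in injured CD44high and 135 to 231 CPM in injured CD44low libraries. Nearly all of this was PECAM1, an adhesion molecule also found on naive T cells, with group means of 60.8, 202, 97.9 and 193 CPM. CDH5, the cadherin of endothelial junctions, had 0 counts in all CD44low libraries, and KDR had 0 in the uninjured and 1 in the injured CD44low libraries. Which cells the PECAM1 counts came from was not tested, and neither was the part of endothelium in the LY6C1 values. VWF, EMCN and PLVAP stayed at group means of at most 0.371 CPM in the CD44low groups.

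LY6C2, the near-identical neighbour, had the opposite order. The 4 uninjured CD44high libraries held 10.9, 15.6, 12.2 and 10.9 CPM of LY6C2, and the 5 uninjured CD44low libraries 6.57, 12.0, 7.10, 5.61 and 7.26 CPM. These ranges overlapped through CD44low replicate 2, whose 12.0 CPM was above the other 4 libraries of its group. In injured mice the CD44high libraries held 11.7, 14.3, 14.6 and 15.9 CPM, and the 6 CD44low libraries ran from 4.14 over a median of 6.41 to 9.90 CPM, without overlap. The log2 fold change was 0.69 (SE 0.249) in uninjured and 1.11 (SE 0.235) in injured mice. A library held 23 to 135 counts of LY6C2, against 43 to 1741 of LY6C1. In CD44low libraries the LY6C2 levels are therefore the less precise. In CD44high libraries both genes had few counts, at 43 to 144 for LY6C1 and 61 to 135 for LY6C2. In uninjured mice LY6C2 was no longer called without CD44high replicate 3 (log2 0.55) or without CD44low replicate 1, 3 or 4 (0.63, 0.65 and 0.58).

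Monocytes are rich in Ly-6C, and between the subsets their marker list was higher where LY6C2 was higher. The 8 monocyte and macrophage genes summed to 66.5 to 141 CPM in uninjured CD44high, 20.3 to 41.2 in uninjured CD44low, 95.6 to 247 in injured CD44high and 35.5 to 155 CPM in injured CD44low libraries, with LYZ2 as the largest part. None of the 8 was at 0 over all libraries, and CD14 reached at most 0.223 CPM in a group. Not every gene followed the sum: CD14 had means of 0 and 0.125 CPM in uninjured CD44high and CD44low Tregs. MS4A7 had 0.424 and 0.605 CPM in injured CD44high and CD44low Tregs. Within injured CD44low Tregs the order differed, since replicate 5, with the highest sum at 155 CPM, had 6.28 CPM of LY6C2, and replicate 5_2, with the most LY6C2 at 9.90 CPM, had a sum of 45.5 CPM. The plasmacytoid dendritic cell list, with 4 genes, summed to 22.2 to 31.2 CPM in CD44high and 1.01 to 16.5 CPM in CD44low libraries. Of its genes SPIB had group means of 5.59 to 8.24 CPM in both subsets. SIGLECH, at 17.3 and 11.4 CPM in uninjured and injured CD44high Tregs, KLK1 and COX6A2 had means of at most 0.745 CPM in the CD44low groups. The part of such cells in the LY6C2 values was not tested.

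The share of LY6C1 among all LY6C1 and LY6C2 counts separated the subsets without the use of library totals. It was 96.8% ± 1.08 (SD, n = 5) in uninjured and 96.9% ± 1.19 (SD, n = 6) in injured CD44low Tregs, against 45.5% ± 4.85 (SD, n = 4) and 49.3% ± 5.35 (SD, n = 4) in CD44high Tregs. The lowest CD44low library was at 95.0% and the highest CD44high library at 54.6%. When the 2 genes were summed as 1 feature, the log2 fold change of CD44high against CD44low Tregs was -3.41 in uninjured and -3.02 in injured mice, so that the sum had the direction of LY6C1 and the direction of LY6C2 was lost.

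**Figure D2:**
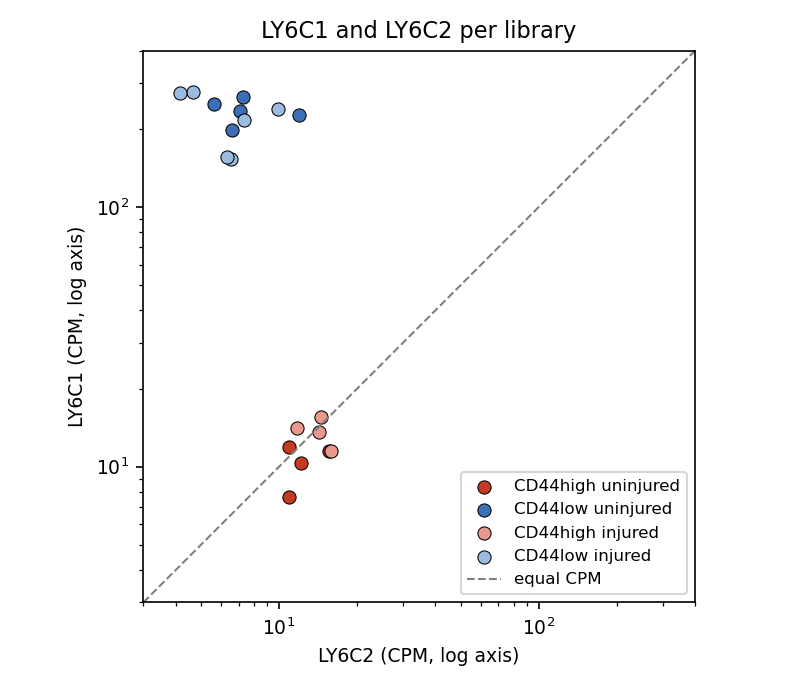
Each point is 1 library, with LY6C2 on the horizontal and LY6C1 on the vertical axis, both in CPM on logarithmic axes, and the dashed line marks equal CPM. CD44high libraries lie near the line, with 41.4% to 54.6% of the counts in LY6C1, and CD44low libraries lie far above it, with 95.0% to 98.5%.

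LY6A, the antigen Sca-1, was higher in CD44high Tregs. The 4 uninjured CD44high libraries held 493, 627, 557 and 516 CPM and the 5 uninjured CD44low libraries 225, 270.4, 293, 265 and 279 CPM. The groups did not overlap, and the log2 fold change was 1.04 (SE 0.124). In injured mice the CD44high libraries held 529.5, 547, 581 and 453 CPM. The injured CD44low libraries ran from 262 over a median of 353 to 462 CPM, so that the highest, 4_2, passed the lowest CD44high library. After injury the corresponding log2 fold change was 0.57 (SE 0.118).

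LY6E, a widely expressed member, had its low group in uninjured CD44low Tregs. The uninjured CD44high libraries held 3855, 3904, 3387 and 3841 CPM and the uninjured CD44low libraries 2858, 2937, 2846, 2739 and 3153 CPM, without overlap. In injured mice the CD44high libraries held 4268, 3564, 3511 and 3287 CPM, and the CD44low libraries ran from 2912 over a median of 3896 to 4268 CPM, so that the groups overlapped. The log2 fold change of CD44high against CD44low Tregs was 0.37 (SE 0.102) in uninjured and -0.03 (SE 0.0982) in injured mice.

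LY6D overlapped between the subsets before and after injury and between injured and uninjured mice of each subset. The uninjured CD44high libraries held 19.6, 28.8, 16.5 and 15.9 CPM, and the uninjured CD44low libraries 9.69, 18.3, 19, 11.1 and 14.0 CPM. The injured CD44high libraries held 28.2, 20.2, 20.6 and 36.3 CPM, and the injured CD44low libraries ran from 15.3 over a median of 21.4 to 32.0 CPM. The log2 fold changes of CD44high against CD44low Tregs were 0.48 (SE 0.245) and 0.24 (SE 0.228) in uninjured and injured mice.

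The B-cell marker list varied along with LY6D between libraries. Of its 7 genes 6 were in the table, none of them at 0 over all libraries, and they summed to 97.2 to 194 CPM in uninjured CD44high, 72.2 to 142 in uninjured CD44low, 94.1 to 209.5 in injured CD44high and 97.7 to 175 CPM in injured CD44low libraries. The library with the highest sum, injured CD44high replicate 5, also had the most LY6D. Uninjured CD44high replicates 2 and 3 came next at 194 and 189 CPM, with LY6D at 19.6 and 28.8 CPM. Most of the sum was CD79B, CD79A and MS4A1, the surface genes of mature B cells, while PAX5, the factor that fixes B-cell identity, had group means of 0.729 to 1.84 CPM. The part of B cells in the LY6D values was not tested.

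**Figure D3:**
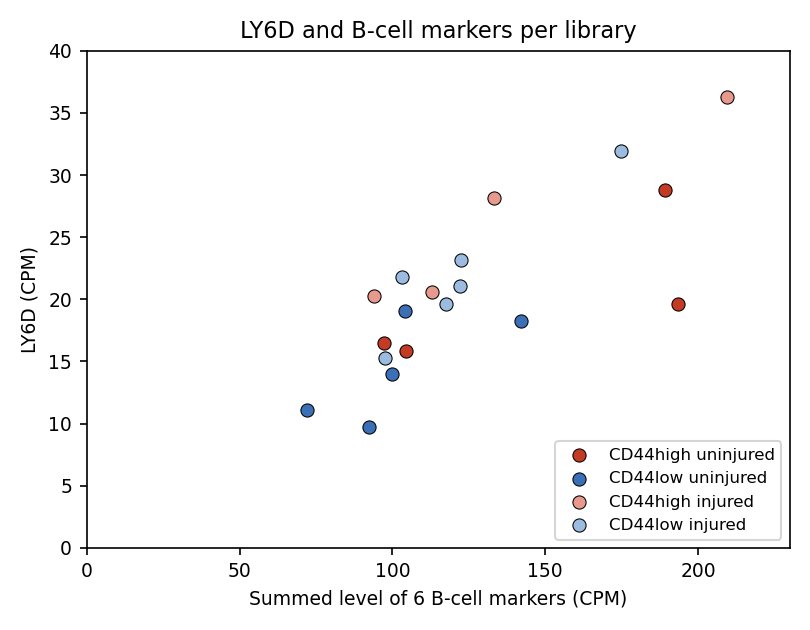
Each point is 1 library, with the summed CPM of 6 B-cell markers on the horizontal and the CPM of LY6D on the vertical axis, both linear from 0 and coloured by group. The library with the highest sum, at 209.5 CPM, also has the highest LY6D level, at 36.3 CPM.

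In counts of calls (edgeR, adjusted p under 0.05 over all 11464 genes tested), LY6A, LY6C2 and LY6E were called higher and LY6C1 lower in CD44high Tregs of uninjured mice. Of all genes 24.7% were called higher and 21.3% lower there. In injured mice LY6A and LY6C2 were called higher and LY6C1 lower, with 20.1% of all genes called higher and 17.2% lower. Since these comparisons took part in the choice of the members, nothing is read from the counts. The median log2 fold change over the 5 members was 0.48 and 0.24, beside 0.0091 and -0.00049 over all genes tested.

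**Figure D4:**
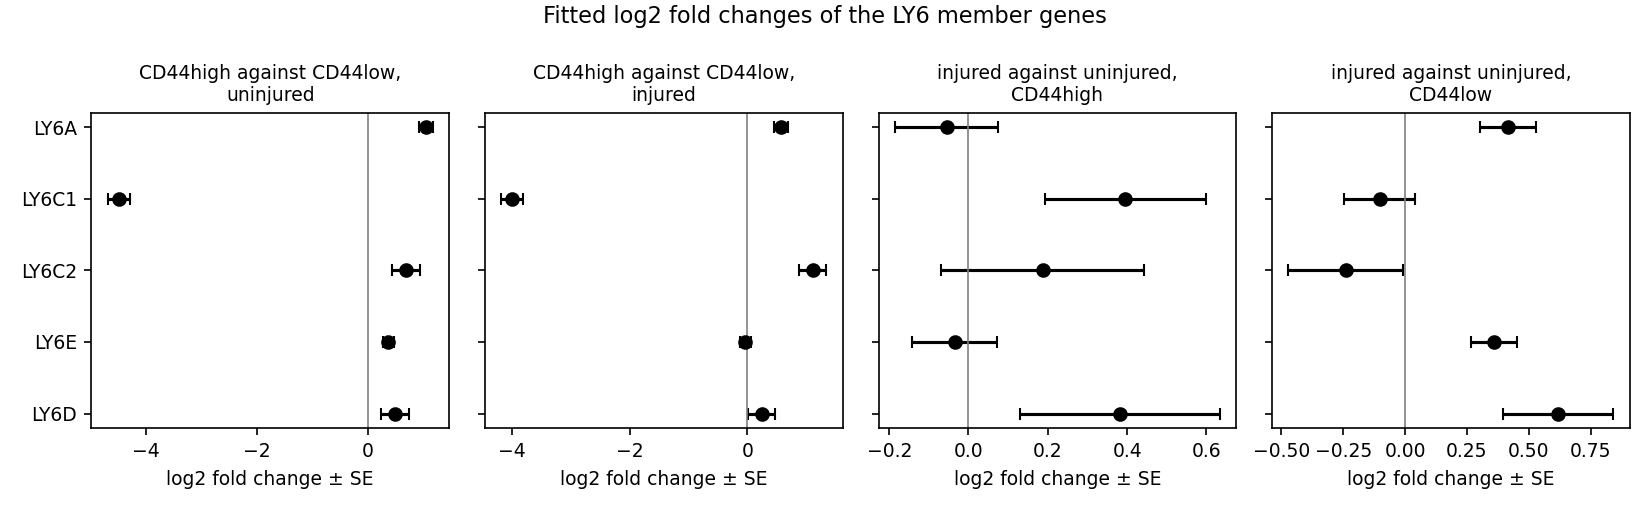
Points are the fitted log2 fold changes of the 5 members in 4 comparisons and bars are ± SE; the horizontal scale differs between panels. Between the subsets LY6C1 lies at -4.49 and -4.0 while the other members lie between -0.03 and 1.11, and after injury all lie between -0.24 and 0.62.

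The next question was how the members stood after injury within each subset. In CD44high Tregs the injured and uninjured libraries overlapped for every member, with log2 fold changes of -0.06 (SE 0.131) for LY6A, 0.40 (SE 0.203) for LY6C1, 0.19 (SE 0.255) for LY6C2, -0.03 (SE 0.108) for LY6E and 0.38 (SE 0.253) for LY6D. None was called by edgeR or by DESeq2, and 0 had an unadjusted p under 0.05. Of all genes 1.06% were called higher and 1.33% lower in this comparison. The members were chosen with these levels known as well, so nothing is read from the calls or the overlaps here or in the next comparisons after injury.

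In CD44low Tregs LY6A, LY6E and LY6D had higher means after injury and LY6C1 and LY6C2 lower ones. The log2 fold change was 0.41 (SE 0.113) for LY6A, 0.36 (SE 0.0925) for LY6E and 0.62 (SE 0.223) for LY6D, and the ranges overlapped for each. It was -0.10 (SE 0.143) for LY6C1 and -0.24 (SE 0.232) for LY6C2. LY6A and LY6E were called higher by edgeR, where 4.24% of all genes were called higher and 3.36% lower. DESeq2 called 3 of the 5 members. LY6A was not called without uninjured CD44low replicate 1 (0.38) or injured replicate 1_2 (0.40), and LY6D was called without injured replicate 5_2 (0.73), where 3 members were called. With only the compared groups in the fit, 0 members were called. These calls are a description.

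Markers of other cells also moved after injury. The neutrophil list, with 9 genes, summed to at most 0.834 CPM in uninjured CD44high and 1.69 CPM in uninjured CD44low libraries. It reached 3.85 to 31.3 CPM in injured CD44high and 0 to 44.1 CPM in injured CD44low libraries. Of its genes ELANE was at 0 in all libraries, and S100A8 had group means of 0.27 and 3.39 CPM in uninjured and injured CD44low Tregs. The monocyte list went from 20.3 to 41.2 CPM in uninjured to 35.5 to 155 CPM in injured CD44low libraries. The part of these cells in the members' values after injury was not tested.

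The second-number libraries stood apart in LY6C1. The 3 injured CD44low libraries without a second number held 153, 216 and 156 CPM and those with it 277, 275 and 239.5 CPM, without overlap, and the uninjured CD44low libraries at 198 to 265.5 CPM lay across both. For LY6A the libraries without the second number held 262 to 351.9 CPM and those with it 353.8 to 462 CPM, apart by a narrow gap. LY6C2, LY6D and LY6E overlapped. How large a share of all genes separates these 3 libraries from the other 3 was not computed, so nothing is read from the separation. Without the second-number libraries the log2 fold change of LY6C1 after injury in CD44low Tregs was -0.43 (SE 0.134) and was called, and that of LY6A was 0.24 and was not called. No library of the other 3 groups carries such a number, so that its part in the comparison after injury could not be tested outside this group.

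To ask whether injury acted differently on the subsets, the interaction was fitted, and its estimate was -0.47 (SE 0.173) for LY6A, -0.40 (SE 0.142) for LY6E, 0.50 (SE 0.248) for LY6C1, 0.43 (SE 0.345) for LY6C2 and -0.24 (SE 0.336) for LY6D. None of the members was called by edgeR or DESeq2, 2 had an unadjusted p under 0.05, and the shares of all genes called were 0.192% higher and 0.454% lower; this too is a description. Without the second-number libraries LY6C1 was called, at 0.82 (SE 0.211).

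Within the groups, LY6A and LY6C1 varied together although their group means ran in opposite directions. Over the 19 libraries Pearson's r of log2 CPM was -0.83 for this pair, and after the group means were removed it was 0.78. The second-number libraries were the higher ones of their group in both genes, and the part of this in the correlation was not tested. For the other pairs of members the values within groups lay between -0.32 (LY6C2 and LY6E) and 0.49 (LY6A and LY6E).

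The genes outside the members whose log2 CPM ran most like each member over the 19 libraries were taken by Pearson's r, as a description. For LY6C1 these were SH3BP5, GATA1, ATP1B1, CCR7 and IGF2R (0.98 to 0.99), with CCR7 the lymph node homing receptor of naive T cells, and 243 genes had an r above 0.9. For LY6A they were CRTAP, 2210417A02RIK, 0610039K10RIK, SERINC3 and MGARP (0.95 to 0.96), and for LY6C2 GPR155, ZBTB1, AZIN1, MID2 and TRPM6 (0.88 to 0.91). For LY6E they were JPT1, TBRG1, RAC2, UCP2 and EXOSC8 (0.85 to 0.89), and for LY6D CD5L, SERTAD3, NDUFAF1, MLYCD and PLAC8 (0.81 to 0.83). Ranking by Spearman's rho kept 1 of the 5 genes for LY6A, 0 for LY6C1, 2 for LY6C2, 3 for LY6E and 3 for LY6D.

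Of the wider LY6/uPAR family, 36 other listed genes were in the table, 17 had a count in any library and 7 passed the filter. These 7 are not members and were tested, but their list too was chosen with earlier results of these data known. Between the subsets 2 were higher in CD44high Tregs, LY6G5B and LY6I, and 1 was lower, LY6K, both in uninjured and in injured mice. LY6G5B and LY6I had at most 13 and 12 counts in a CD44low library. They passed the filter through the CD44high libraries, where they were higher, so their calls are given as a description. Of all genes tested 24.7% were higher and 21.3% lower in uninjured mice, and 20.1% and 17.2% in injured mice. The median log2 fold change over the 7 was -0.50 and -0.60.

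LY6G5B, a family gene that lies apart from the cluster on chromosome 17 (chr17:35113948-35115428), was at 5.33 ± 1.35 CPM (SD, n = 4) in uninjured CD44high and at 0.438 ± 0.422 CPM (SD, n = 5) in uninjured CD44low Tregs. These groups stood clear of each other, as did those after injury. Its log2 fold change was 3.57 in uninjured and 2.16 in injured mice. These values are a description, because the gene passed the filter through the CD44high libraries.

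LY6K, known for its part in sperm function, had the direction of LY6C1. It was at 4.2 ± 0.706 CPM (SD, n = 4) in uninjured CD44high and at 14.1 ± 3.17 CPM (SD, n = 5) in uninjured CD44low Tregs. The log2 fold change was -1.74 (edgeR, adjusted p = 0.000444) in uninjured and -1.76 (adjusted p = 0.000279) in injured mice, and both calls held in all 25 alternatives. In injured mice the groups overlapped, since CD44high replicate 3 held 8.9 CPM and CD44low replicate 5_2 held 7.35 CPM. Of the stretches of 50 bases in its transcript 29.2% also occurred in GM17189, so that its counts are uncertain.

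LY6I, the closest relative of LY6A in coding sequence among the genes compared, at 86.3% identity, was low throughout. A library held 1 to 30 counts of it. Its log2 fold change was 1.69 in uninjured and 1.21 in injured mice, a description because the gene passed the filter through the CD44high libraries. With replicate numbers as a block neither edgeR call was kept, and without uninjured CD44high replicate 2 or 5 the call in uninjured mice was lost. The call in injured mice held in 5 of 25 alternatives.

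**Figure D5:**
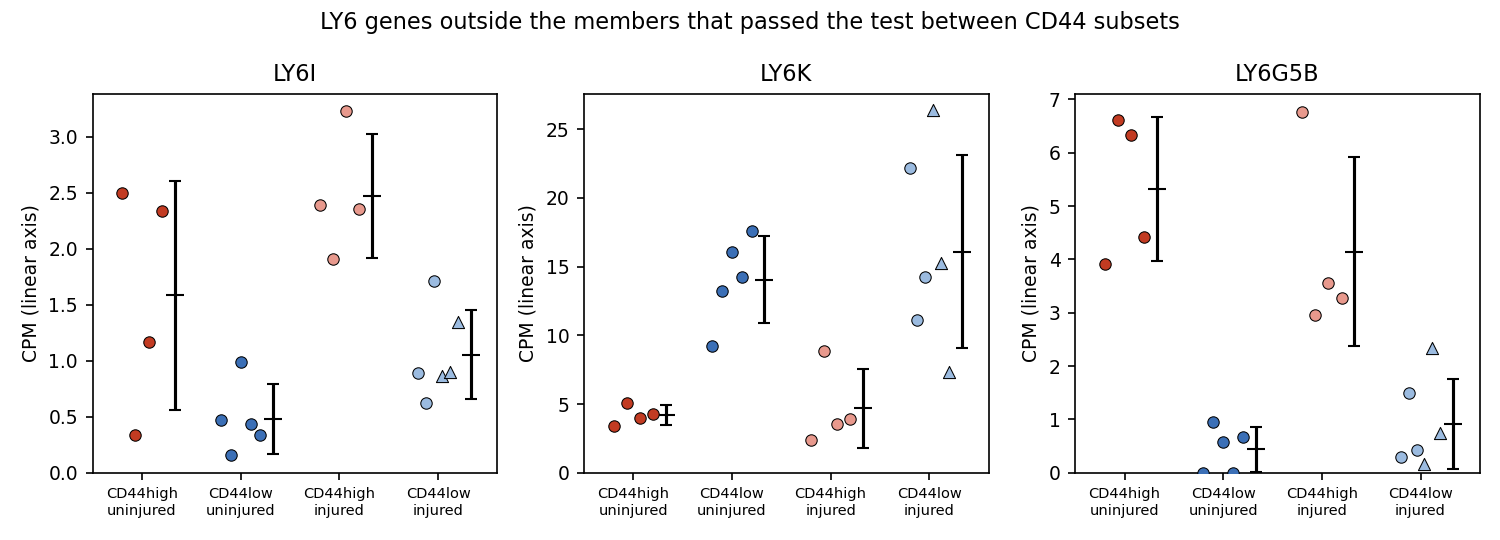
The panels plot the CPM of LY6I, LY6K and LY6G5B in each library by group on linear axes from 0, with triangles for the second-number libraries and bars for the mean ± SD. LY6G5B lies at 5.33 CPM on average in uninjured CD44high and at 0.438 CPM in uninjured CD44low Tregs, and LY6K at 4.2 and 14.1 CPM.

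PLAUR, the urokinase receptor, LYNX1, which binds nicotinic receptors, LYPD6B and a family gene named only by its RIKEN clone did not pass the test between the subsets, with log2 fold changes from -1.32 to -0.02 in uninjured and from -0.83 to -0.56 in injured mice. After injury none of the 7 passed in either subset or in the interaction, by edgeR or DESeq2, and 0 had an unadjusted p under 0.05. The shares over all genes were 1.06% higher and 1.33% lower in CD44high Tregs and 4.24% and 3.36% in CD44low Tregs. In the interaction they were 0.192% and 0.454%. Among the genes below the filter, the complement regulator CD59A had 2 to 13 counts in each uninjured CD44high library and 4 to 11 in each injured one, 0 in all uninjured CD44low libraries and 0 or 1 in the injured ones. LY6G, the antigen of neutrophils, had 4 counts in all, in injured CD44high libraries. CD59B, GPIHBP1, SLURP2, D730001G18RIK, LYPD1, LYPD3, LYPD4 and ACRV1 had at most 10 counts in a library.

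The GPI anchor that holds most of these proteins at the surface is built by a chain of enzymes, of which 28 were tested. In uninjured mice 6 were higher and 3 lower in CD44high Tregs, and in injured mice 4 were higher and 2 lower. Over all genes the shares were 24.7% and 21.3% in uninjured and 20.1% and 17.2% in injured mice, so that the list was not above the background in either direction. GPAA1 and PIGS, subunits of the transamidase that joins the anchor to the protein, were higher by 1.04 and 0.61 on the log2 scale in uninjured mice (edgeR, adjusted p = 4.36e-06 and 4.66e-05) and by 0.55 and 0.46 in injured mice (adjusted p = 0.00323 and 0.000762). PIGC, of the first step, was higher by 0.64 in uninjured mice, and PIGF by 0.74 in injured mice. PIGP was lower in both, at -0.61 and -0.48, with DPM1 (-1.23) and PIGW (-1.30) lower in uninjured and PIGV (-0.57) in injured mice. The medians of the list were 0.08 and 0.16. After injury 0 of 28 passed in CD44high Tregs (2 at an unadjusted p under 0.05, 0 by DESeq2), and PIGQ alone passed in CD44low Tregs, at 0.47 (edgeR, adjusted p = 0.043). The shares over all genes were 1.06% higher and 1.33% lower after injury in CD44high Tregs, and 4.24% and 3.36% in CD44low Tregs. The PIGQ call was lost in 10 of the 19 fits that left out 1 library.

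Of 11 other GPI-anchored surface proteins tested, 3 were higher and 4 lower in CD44high Tregs of uninjured mice, and 3 and 2 in injured mice, beside 24.7% and 21.3% of all genes in uninjured and 20.1% and 17.2% in injured mice. CD48, a ligand of CD244, was higher by 0.95 in both (edgeR, adjusted p = 4.71e-06 and 3.18e-06), NT5E, the ectonucleotidase CD73, by 0.76 and 0.81, and CD52 by 0.39 and 0.67. CD55, a complement regulator, was lower at -0.69 and -0.70 (edgeR, adjusted p = 0.000843 and 0.00072), and CD160 at -1.07 in uninjured mice. After injury 3 of the 11 were called higher and 0 lower in CD44high Tregs, among them CD160 (1.5) and IZUMO1R, the folate receptor 4 of Tregs (0.77). In CD44low Tregs 2 were called higher and 0 lower, BST2 (0.54) and IZUMO1R (0.46). The shares over all genes were 1.06% higher and 1.33% lower in CD44high Tregs and 4.24% and 3.36% in CD44low Tregs. The median of the list was -0.14 and -0.04 between the subsets and 0.15 and 0.09 after injury.

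The interferon response list is given because LY6A and LY6E are known to be inducible by interferon, and all 40 of its genes were tested. In uninjured mice 5 were higher and 10 lower in CD44high Tregs, beside 24.7% and 21.3% of all genes. In injured mice 5 were higher and 8 lower, beside 20.1% and 17.2%. OAS1A was higher by 1.17 and 1.02 (edgeR, adjusted p = 2.36e-05 and 5.04e-05), and USP18, which restrains interferon signalling, was lower at -1.71 and -1.17 (edgeR, adjusted p = 1.28e-05 and 0.000532). In uninjured mice GBP3 (0.58) and TAP1 (0.43) were higher and IFIT2 (-1.29) and OASL1 (-2.61) lower. In injured mice IFI27L2A (1.17) and ISG15 (0.84) were higher and SOCS1 (-1.19) and GBP2 (-0.94) lower. The medians were -0.04 and -0.05.

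After injury the list had 6 genes that rose and 3 that fell in CD44high Tregs, where LY6A and LY6E had log2 fold changes of -0.06 and -0.03. IFI27L2A rose by 0.97, ISG15 by 1.23 and OASL1 by 1.62 (edgeR, adjusted p = 0.00417, 0.00817 and 0.0156), and GBP3 (-0.60), IIGP1 (-0.93) and SOCS1 (-0.50) fell. In CD44low Tregs, where LY6A and LY6E had 0.41 and 0.36, 2 rose and none fell, OAS1A by 0.86 and IFI35 by 0.44 (edgeR, adjusted p = 0.00541 and 0.0124). Over all genes tested 1.06% were called higher and 1.33% lower after injury in CD44high Tregs, and 4.24% and 3.36% in CD44low Tregs. The medians of the list were 0.32 and 0.15, beside -0.021 and 0.0077 over all genes. In the interaction 0 of 40 passed by edgeR and 2 by DESeq2, and 8 had an unadjusted p under 0.05. By edgeR 0.192% of all genes were called higher and 0.454% lower there. The count in CD44high Tregs was 4 without injured replicate 4 and 5 without uninjured replicate 4 or 5, and that in CD44low Tregs was 5 without uninjured replicate 3 and 4 without injured replicate 5_2 or injured CD44high replicate 2.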

How the data were processed

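Members and gene lists were chosen with earlier results of these data known. The authors deposited raw counts per gene for 19 libraries, without normalization. The submitters' processing notes name STAR 2.5, bcl2fastq 2.18 and the builds mm9 and mm10 without saying which served these counts. Annotation, strand and treatment of reads that match several genes are not stated in the sources at hand. Counts were tested with edgeR 4.0.16 (R 4.3.3) by the quasi-likelihood test, two-sided, with TMM factors, a minimum count of 10 in the filter and 1 mean for each of the 4 groups. P-values were adjusted by Benjamini-Hochberg over 11464 genes and called under 0.05. CPM used totals scaled by TMM, and log2 CPM a prior count of 2. DESeq2 1.42.0 and other settings were alternatives. Named genes were the members, family genes with a count, and of each other list the 3 called genes of smallest p per direction and comparison; some are not reported here. Same-numbered libraries did not deviate together throughout, so numbers were not taken as pairs. Counts of LY6C2, of LY6C1 in CD44high libraries and of the tested family genes were low, so counting error weighs on them. Sequences came from RefSeq and GENCODE vM21, and figures from matplotlib 3.10.9.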

Additional observations from a re-analysis of the deposited data

Results flagged for a closer look

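Single libraries stood apart from their group by Dixon's criterion in 4 of the 48 gene and group sets examined, which covered the members and the tested family genes; chance alone gives about 1 in 20. LY6C2 in uninjured CD44low replicate 2 was the highest of its group at 12.0 CPM, and LY6E in uninjured CD44high replicate 4 the lowest of its group at 3387 CPM. LY6G5B in injured CD44high replicate 2 was the highest of its group at 6.77 CPM, and the family gene named only by its RIKEN clone in injured CD44low replicate 4_2 at 4.14 CPM.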

How the results depend on the processing

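Of the members' log2 fold changes under the alternatives, 623 values moved by less than the spread between libraries, 5 moved further and 2 that were called turned direction. Of the 623, 9 were not called, lay near 0 and changed sign: LY6E between the subsets in injured mice (up to 0.02), LY6A and LY6E after injury in CD44high Tregs (up to 0.03 and 0.01) and LY6C1 in CD44low Tregs (up to 0.0028). With LY6C1 and LY6C2 summed, both had -3.41 in uninjured and -3.02 in injured mice, which turned LY6C2. Without the second-number libraries LY6C1 was at -3.67 between the subsets in injured mice, -0.43 after injury in CD44low Tregs and 0.82 in the interaction. Counts of calls changed as follows. Without these libraries GPI anchor synthesis had 3 calls between the subsets in injured mice, 2 after injury in CD44low Tregs and 1 in the interaction, other GPI-anchored proteins had 5 after injury in CD44high Tregs, interferon response had 4 in CD44low Tregs and 2 in the interaction, all listed genes outside the members had 9 and 4, and the members had 1 in the interaction. With DESeq2 GPI anchor synthesis had 3, interferon response 5 and all listed genes 10 in CD44low Tregs after injury, other GPI-anchored proteins had 5 in CD44high Tregs, and the interaction had 2 for interferon response and 3 for all listed genes. With the compared groups only, GPI anchor synthesis and the members had 0 in CD44low Tregs after injury and other GPI-anchored proteins 5 in CD44high Tregs. With RLE factors the interaction had 1 interferon gene and 2 listed genes, and without the filter interferon response had 4 in CD44low Tregs. Leaving out 1 library at a time gave, after injury in CD44high Tregs, 7 to 14 listed genes, 4 to 9 interferon genes and 3 to 5 other GPI-anchored proteins; in CD44low Tregs 4 to 9 listed genes, 1 to 3 members, 0 to 3 genes of GPI anchor synthesis and 2 to 5 interferon genes; and in the interaction 1 to 2 listed and 0 to 1 interferon genes. Why these counts moved was not tested. With replicate numbers as a block the calls over all genes went from 871 to 440 after injury in CD44low Tregs and from 5280 to 5220 between the subsets in uninjured mice, GPI anchor synthesis had 0 and interferon response 4 calls in CD44low Tregs, and LY6I lost its calls between the subsets. Between the subsets the correlation of same-numbered libraries lay between -0.00685 and 0.119 in uninjured mice, with 1 of 4 pairs above 0.1. In injured mice it lay between -0.0537 and 0.167, with 3 of 4 above 0.1. Pairs with different numbers lay between -0.0798 and 0.0395 in uninjured mice (0 of 16 above 0.1). In injured mice they lay between -0.452 and 0.41 (5 of 20). Same-numbered pairs of injured and uninjured libraries lay between -0.12 and 0.0178. Whether the numbers pair libraries is therefore not known. Depth limits the family genes of low count, with 0 counts in the lowest libraries of LY6G5B and LYPD6B and 1 in that of LY6I, and among the members LY6C2, with 23.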
